A study of Rattus norvegicus with 6 samples.

Results

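The complement system is a cascade of plasma and locally made proteins that tags targets and recruits leukocytes. In the classical pathway the proteases C1r and C1s, carried by the recognition molecule C1q, cut C4 and C2. The products cut C3, the component on which all routes meet, and factor B amplifies that step in the alternative pathway. C1 inhibitor restrains C1r and C1s, and the C3a receptor senses a fragment released from C3. The liver is the main source of the plasma proteins, but fibroblasts and macrophages also make several of them.

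The genes described are C1r, C1s, C2, C4a, C4b, C3, Cfb (factor B), Serping1 (C1 inhibitor) and C3ar1 (the C3a receptor). Of these 9 symbols 8 have a row among the 30560 genes of the deposited table, and C2 was not analysed here. The genes were chosen on the antagomiR against NC values themselves, FPKM per library, so their values in that contrast are given as a description without a test. FPKM are fragment counts scaled by gene length and by the size of the library.

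Cardiac fibroblasts of newborn Sprague-Dawley rats, aged 1 to 2 days, were transfected with 50 nM of an antagomiR against miR-142-3p (3 libraries) or with 50 nM of a negative control oligonucleotide, NC (3 libraries). All cells came from digested ventricles, were enriched by early attachment to the dish, were starved of serum overnight and received the same lipid transfection reagent. The antagomiR is an antisense oligonucleotide meant to block the mature microRNA, and the labels call that group a knockdown. The libraries were made from polyadenylated RNA, so the microRNA itself was not measured, and the labels do not tell whether replicates were separate cell isolations. P-values therefore cover only the spread between these libraries. RefSeq places the mature microRNA at chr10:73055155-73055177, plus strand, in the build GRCr8, and its sequence is shown because it is the one the antagomiR was directed at, with the seed (bases 2 to 8) in capitals.
rno-miR-142-3p: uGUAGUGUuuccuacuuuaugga

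Library totals recovered from the FPKM values lay between 19472409 and 24622667 fragments. The 10 fibroblast markers examined, among them Col1a1 and Pdgfra, all averaged at least 1 FPKM. They summed to 11920 to 12170 FPKM in the antagomiR libraries and 12670 to 12910 FPKM in the NC libraries, a sum carried by the collagen genes. Singly, 5 of the 10 rose and 3 fell by limma at an adjusted p under 0.05, beside 17.5% and 9.21% of the 12024 genes that averaged 1 FPKM or more and were tested. Pdgfra, Dcn, Lum, Postn and Tcf21 were at 3.22, 2.72, 2.4, 1.85 and 1.4 times their NC means, and Col1a2, Vim and Thy1 fell. The part of these shifts in the complement values was not tested. The 7 cardiomyocyte markers, Tnnt2 among them, summed to 295.8 to 355.9 FPKM with the antagomiR and to 389 to 431 FPKM in NC. Tnnt2 made up most of each sum, averaging 253.8 FPKM (antagomiR) and 339 FPKM (NC). Singly, limma called Tnnt2 lower and Myh7 higher (adjusted p = 0.0127 and 0.0168). Of the remaining cardiomyocyte markers 4 were not called and 1 was not tested. The 5 endothelial markers summed to 2.965 to 3.203 FPKM with the antagomiR and to 1.793 to 2.163 FPKM in NC. Of these only Tek was tested, and limma called it higher (adjusted p = 0.0417), while 4 averaged under 1 FPKM. The 5 hepatocyte markers with a row, Alb and Apob among them, summed to at most 0.099 FPKM in every library. Leukocyte transcripts were present: 19 markers summed to 1109, 997.2 and 1054 FPKM in the antagomiR libraries and to 144.5, 210.9 and 744.5 FPKM in NC replicates 1 to 3. NC replicate 3 stands apart by this measure. Lyz2 was the largest part of each leukocyte sum, averaging 523.2 FPKM (antagomiR) and 185.7 FPKM (NC). It was not called by limma (adjusted p = 0.0511). S100a9 and Cd3e, which mark neutrophils and T cells, are listed at 0 in all 6 libraries. S100a8, on the same list, had 3, 3 and 1 fragments in antagomiR replicates 1 to 3 and 0, 0 and 2 in NC replicates 1 to 3.

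Each of the 8 complement genes was higher in all 3 antagomiR libraries than in any NC library. For comparison, 29.2% of the 12024 tested genes had all antagomiR libraries above all NC libraries. Since the genes were chosen from this contrast, nothing further is read from that count. The 8 rows summed to 1070, 1040 and 1080 FPKM in antagomiR replicates 1, 2 and 3, against 88.4, 102 and 147 FPKM in NC replicates 1, 2 and 3. They took 0.287% ± 0.00597 of all fragments in the antagomiR libraries and 0.0292% ± 0.00792 in the NC libraries (SD, n = 3 each). In bulk RNA a change in the number of cells of a type and a change in RNA per cell cannot be told apart.

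**Figure D1:**
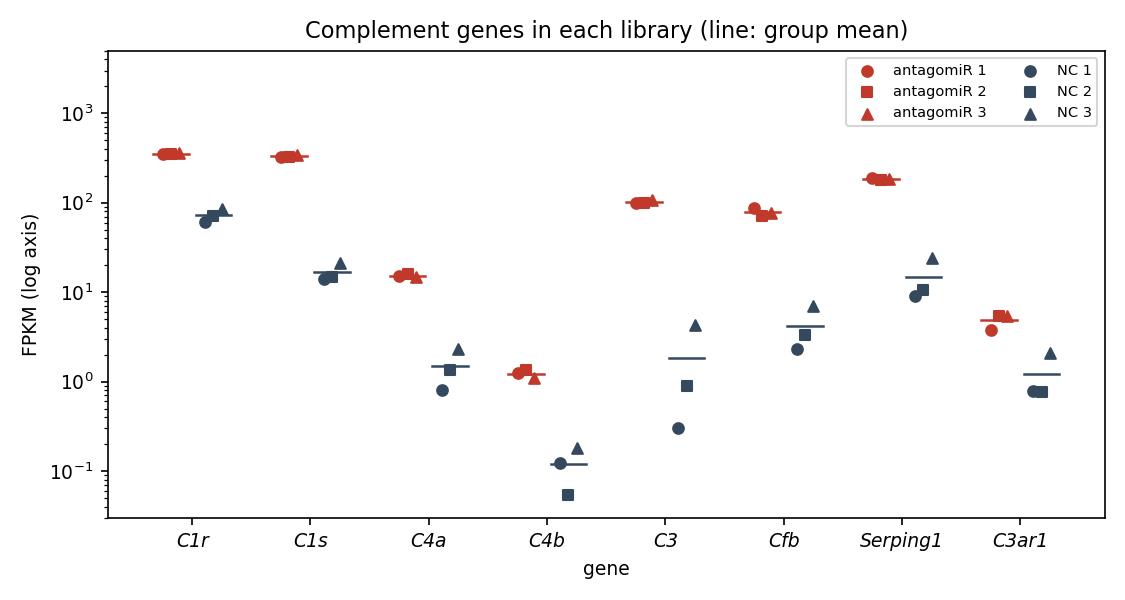
FPKM (log axis) of the 8 complement genes, with antagomiR libraries in red and NC libraries in dark blue, 1 point per library and a line at the group mean. The antagomiR points of every gene lie above its NC points. NC replicate 3 (triangle) is the highest NC library for all 8, and for 41.9% of all tested genes.

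By group mean the C1 proteases were the most abundant of the set, although Serping1 (24.2 FPKM) lay above C1s (21.1 FPKM) in NC replicate 3. C1r encodes the protease that activates C1s. It was at 349.9, 349.1 and 358 FPKM in antagomiR replicates 1 to 3, against 61.0, 70.6 and 85.5 FPKM in NC replicates 1 to 3. The antagomiR mean of 352 ± 5.02 FPKM was 4.87 times the NC mean of 72.3 ± 12.3 FPKM (SD, n = 3 each). The values rest on at least 20959 fragments per antagomiR library and at least 3200 per NC library. C1s, which cuts C4 and C2, was at 326, 322 and 339.5 FPKM with the antagomiR and at 13.9, 14.9 and 21.1 FPKM in NC. Its means were 329 ± 8.92 FPKM with the antagomiR and 16.6 ± 3.87 FPKM in NC, a ratio of 19.8. The log2 difference on the log2(FPKM + 1) scale was 4.25, and 11 of the tested genes had a larger one. For C1r it was 2.28, with 92 genes above it.

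C1s thus stood close to C1r in the antagomiR libraries and far below it in NC. The ratio of C1s to C1r, per length and within a library, was 0.933, 0.924 and 0.948 in antagomiR replicates 1 to 3, against 0.228, 0.211 and 0.247 in NC replicates 1 to 3. These 2 genes are neighbours on chromosome 4 of mRatBN7.2, with 6632 bp between them. C1r (ENSRNOG00000011796) spans 157412692 to 157423484 and C1s (ENSRNOG00000011971) spans 157430117 to 157442303.

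Serping1 encodes the C1 inhibitor, a serpin that binds and inactivates C1r and C1s. It was at 187, 178 and 183 FPKM in the antagomiR libraries, against 9.14, 10.6 and 24.2 FPKM in NC. Its antagomiR mean of 183 ± 4.40 FPKM was 12.5 times the NC mean of 14.6 ± 8.30 FPKM (SD, n = 3 each). Set against the summed FPKM of its target proteases, Serping1 was at 0.276, 0.265 and 0.263 in the antagomiR libraries and at 0.122, 0.123 and 0.227 in the NC libraries. The groups do not overlap in this ratio, but NC replicate 3 lies nearer to the antagomiR libraries than to the other NC libraries. The gene (ENSRNOG00000007457) lies on chromosome 3 from 69842739 to 69852034.

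**Figure D2:**
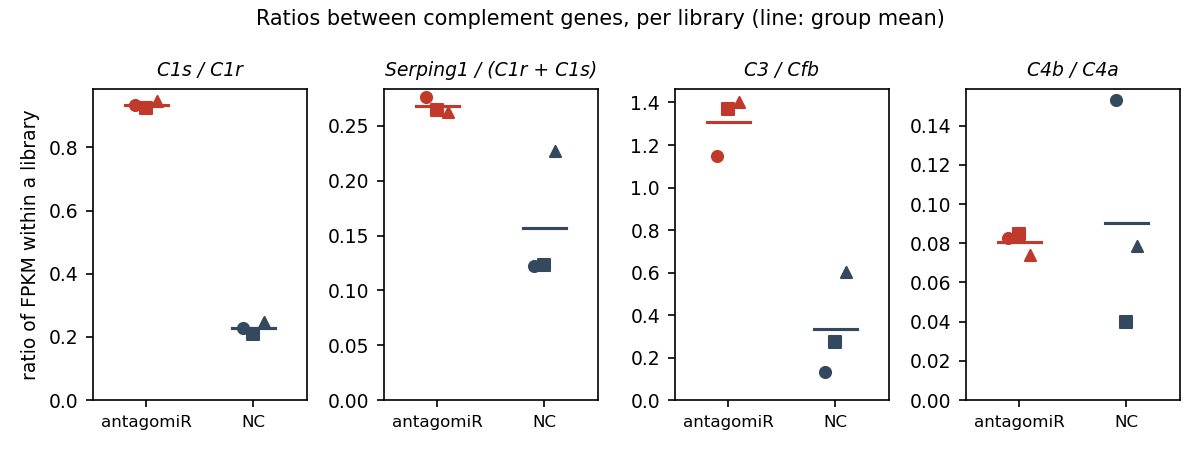
Ratios of FPKM between complement genes within each library (vertical axes from 0), antagomiR in red left of NC in dark blue, 1 point per library and a line at the group mean. C1s over C1r is 0.924 to 0.948 with the antagomiR and 0.211 to 0.247 in NC, whereas C4b over C4a overlaps between the groups.

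C4 is the component that C1s cuts first, and the rat genome holds a pair of copies, C4a and C4b. C4a was at 15.1, 16.0 and 14.8 FPKM with the antagomiR, against 0.813, 1.35 and 2.30 FPKM in NC, a ratio of means of 10.3. C4b was at 1.24, 1.36 and 1.10 FPKM in antagomiR libraries, against 0.125, 0.0539 and 0.180 FPKM in NC, also a ratio of 10.3. C4b rests on 134 to 179 fragments per antagomiR library and on 13, 7 and 19 fragments in NC replicates 1 to 3, and its mean of under 1 FPKM over the 6 libraries kept it out of the tests across genes. The ratio of C4b to C4a was 0.0806 ± 0.00563 with the antagomiR and 0.0906 ± 0.0576 in NC (SD, n = 3 each), with overlapping ranges. How the authors' counting treated reads that match both copies is not given in the sources used here, so each copy's value is uncertain. Whether the C4b values hold reads of C4a was not tested. C4a (ENSRNOG00000066573) and C4b (ENSRNOG00000070397) lie on chromosome 20, from 4005731 to 4020080 and from 4197366 to 4211681.

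C3 had the largest difference of the 8 and also the widest spread among NC libraries. It was at 99.3, 98.4 and 106 FPKM in antagomiR replicates 1 to 3, against 0.301, 0.895 and 4.25 FPKM in NC replicates 1 to 3. These are 11275 to 12422 fragments per antagomiR library and 30, 111 and 428 fragments in the NC libraries. The highest NC library had 14.1 times the C3 level of the lowest, while the antagomiR libraries lay within 1.08-fold. The mean with the antagomiR, 101 ± 4.35 FPKM, was 55.8 times the NC mean of 1.82 ± 2.13 FPKM, 23.8 times NC replicate 3 alone and 169 times the mean of NC replicates 1 and 2. The log2 difference was 5.44 on the log2(FPKM + 1) scale, which understates changes of low genes, and 6.40 with a pseudocount of 0.1. Among tested genes ordered by level, C3 took places 679, 665 and 616 in the antagomiR libraries, against 11942, 11684 and 8631 in NC replicates 1 to 3. The gene (ENSRNOG00000046834) lies on chromosome 9 from 2087437 to 2114429.

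Cfb encodes factor B, the protease precursor that joins C3b to amplify C3 cleavage. It was at 86.5, 71.8 and 76.0 FPKM with the antagomiR, against 2.30, 3.30 and 7.04 FPKM in NC. Its mean of 78.1 ± 7.56 FPKM was 18.5 times the NC mean of 4.21 ± 2.50 FPKM (SD, n = 3 each), and 27.9 times the mean of NC replicates 1 and 2. C3 stood above Cfb in every antagomiR library, at 1.15, 1.37 and 1.40 times its level, and below it in every NC library, at 0.131, 0.272 and 0.604 times. The Cfb row (ENSRNOG00000051235) covers 25032 bp of chromosome 20, from 3951474 to 3976505, with a recovered exon length of 2453 bp. RefSeq lists C2 as the neighbour of Cfb in GRCr8, and whether any C2 reads are in this row was not tested.

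C3ar1, the receptor for the anaphylatoxin C3a, is best known from myeloid cells. It had the smallest ratio of the set and was the only one of the 8 whose lowest antagomiR library was less than 4 times the highest NC library. Its values were 3.77, 5.36 and 5.48 FPKM in antagomiR replicates 1 to 3, against 0.795, 0.760 and 2.09 FPKM in NC replicates 1 to 3. They rest on 341 to 537 fragments per antagomiR library and on 63 to 168 per NC library. The means were 4.87 ± 0.954 FPKM with the antagomiR and 1.22 ± 0.761 FPKM in NC, a ratio of 4.00, or 6.27 without NC replicate 3. The log2 difference of 1.44 was exceeded by 274 tested genes, and it was 2.04 with a pseudocount of 0.1. C3ar1 (ENSRNOG00000009211) lies on chromosome 4 from 156075389 to 156084701.

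The order of levels also differed. With the antagomiR it ran C1r, C1s, Serping1, C3, Cfb, C4a, C3ar1 and C4b, and no neighbours in that order overlapped between libraries. In NC it ran C1r, C1s, Serping1, Cfb, C3, C4a, C3ar1 and C4b. There C1s overlapped Serping1, Cfb overlapped C3, C3 overlapped C4a and C4a overlapped C3ar1. C1r made up 33.1% ± 0.378 of the summed FPKM with the antagomiR and 65.4% ± 6.15 in NC (SD, n = 3 each). The median log2 difference of the 8 genes was 3.22, beside 0.06 for all tested genes.

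NC replicate 3 had the highest NC value for all 8 genes, and for 41.9% of all tested genes. For the 8 it ran from 1.30 times the mean of the other NC libraries for C1r to 7.10 times for C3. The median of these ratios was 2.29 for the 8 genes, 3.55 for the 14 tested leukocyte markers and 1.00 for all tested genes. The antagomiR mean was 2.32 times NC replicate 3 for C3ar1, 4.12 times for C1r, 15.6 times for C1s and 23.8 times for C3, with a median of 7.2 over the 8. The 8 were chosen on the antagomiR against NC values, and the median of this ratio over all tested genes was 1.05. For the leukocyte markers this ratio ran from 0.499 for Mrc1 to 5.19 for Adgre1, both macrophage genes, with a median of 1.31. Cd68, a macrophage marker, had 4.49 times the level of the other NC libraries in NC replicate 3, and the antagomiR mean was 0.856 times NC replicate 3. Of the 14 tested markers 7 rose and none fell by limma with Benjamini-Hochberg adjusted p under 0.05, beside 17.5% and 9.21% of all tested genes, and 10 had an unadjusted p under 0.05. The 7 adjusted calls became 14 without NC replicate 3, where 3185 of the 12024 tested genes rose, and 3 or 4 without any other 1 library. The part of leukocyte RNA in the complement values was not tested.

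**Figure D3:**
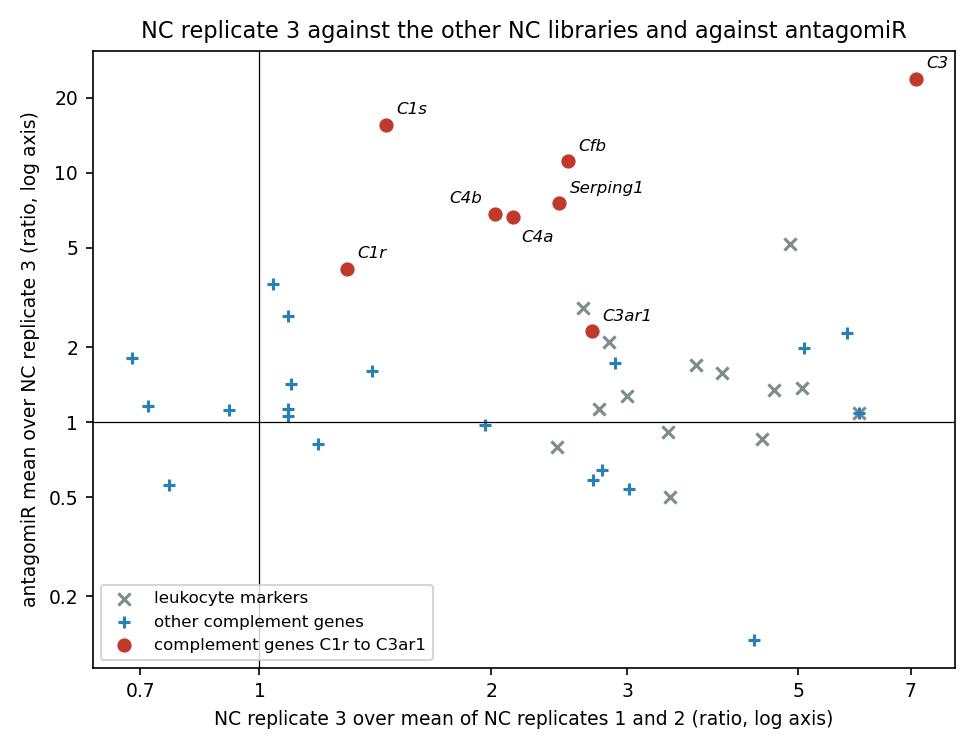
Each point is a gene: the level in NC replicate 3 over the mean of NC replicates 1 and 2 (horizontal, log axis) against the antagomiR mean over NC replicate 3 (vertical, log axis). The 8 complement genes (red), chosen on the antagomiR against NC values, lie at 2.32 to 23.8 on the vertical axis, with a median of 7.2. The 14 tested leukocyte markers (grey) lie at 0.499 to 5.19 there, with a median of 1.31 (blue: other complement genes). The median of all tested genes is 1.05.

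Other genes of the cascade were taken from a list of 45 symbols, of which 40 had a row, 20 averaged at least 1 FPKM and were tested, and the other 20 lay below. By limma on log2(FPKM + 1), with p adjusted over all tested genes, 7 of the 20 rose and 1 fell. Over all tested genes 17.5% rose and 9.21% fell. These shares stand for 2109 and 1107 genes. With median-ratio scaling there were 1576 and 1484, and with quantile normalization 1413 and 1869, while the complement genes that rose or fell without scaling were called in the same direction under both. The median log2 fold change of the 20 genes was 0.34.

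The risen genes were a regulator, a protease, a collectin and receptors. Clu encodes clusterin, which binds terminal complement complexes in the fluid phase. It was at 77.8 ± 3.20 FPKM with the antagomiR and 27.5 ± 1.55 FPKM in NC (SD, n = 3 each), a log2 fold change of 1.47, SE 0.06 (limma adjusted p = 1.96e-05). C1rl, a C1r-like protease gene next to C1r, was at 3.89 ± 0.364 FPKM with the antagomiR and 1.06 ± 0.0808 FPKM in NC (SD, n = 3 each) and rose by 1.25 (limma adjusted p = 0.000184). The scavenger-receptor collectin gene Colec12 rose by 0.55 (limma adjusted p = 0.00238).

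Among receptors, Itgax and Itgb2, which encode the subunits of complement receptor 4, rose by 2.04 and 2.40 (limma adjusted p = 0.00946 and 0.0177). C5ar2, a receptor for C5a, was at 15.4 ± 0.278 FPKM with the antagomiR and 5.02 ± 3.36 FPKM in NC and rose by 1.58 (limma adjusted p = 0.0121). Cd93, once described as a C1q receptor, rose by 0.57 (limma adjusted p = 0.00818). Its means were 1.92 FPKM with the antagomiR and 0.969 FPKM in NC, so it passed the filter of 1 FPKM only through the antagomiR libraries. Itgam, the partner of Itgb2 in complement receptor 3, was not called at a log2 fold change of 1.51 (limma adjusted p = 0.0776). It was called by voom at 1.88 (limma adjusted p = 0.0253) and without NC replicate 3 at 2.20 (limma adjusted p = 2.03e-06). Itgax, Itgb2 and Itgam are genes of leukocytes, and in NC replicate 3 they had 5.78, 5.08 and 5.99 times the mean of the other NC libraries. Itgb2 lost its call without any 1 of the antagomiR libraries (limma adjusted p of 0.0598 to 0.0614) and without NC replicate 2 (0.0674).

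The 1 gene that fell, Masp1, encodes a protease of the lectin pathway, which reaches C4 and C2 without C1. It was at 10.4 ± 0.582 FPKM with the antagomiR and 22.5 ± 3.51 FPKM in NC, a log2 fold change of -1.03, SE 0.11 (limma adjusted p = 0.000869). Colec11, a soluble collectin of the same pathway and the most abundant gene of the list, was at 508 ± 20.7 FPKM with the antagomiR and 554 ± 59.5 FPKM in NC and was not called (limma adjusted p = 0.348). Masp2, the other protease, is listed at 0 in the antagomiR libraries and had 1 fragment in each of NC replicates 1 and 2.

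The genes of C1q were not called. C1qa, C1qb and C1qc, which encode the chains of the molecule that carries C1r and C1s, had means of 6.44, 8.48 and 13.3 FPKM with the antagomiR and 6.37, 8.69 and 11.9 FPKM in NC. Their log2 fold changes were 0.14, 0.15 and 0.31 with standard errors of 0.32, 0.38 and 0.37 (limma adjusted p = 0.789, 0.811 and 0.582). In NC replicate 3 they had 2.71, 3.02 and 2.78 times the mean of the other NC libraries. Without NC replicate 3 all 3 were called, at 0.56, 0.63 and 0.77 (limma adjusted p = 0.00321, 0.00643 and 0.00466), so their outcome rests on that library.

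The membrane regulators Cd55 and Cd59 had log2 fold changes of 0.37 and 0.24 and were not called (limma adjusted p = 0.107 and 0.0509). Cd55 was called without NC replicate 2, at 0.51 (limma adjusted p = 0.0459). Cd59 was called at 0.28 without NC replicate 3 (limma adjusted p = 0.0199), at 0.24 with a minimum of 5 FPKM (0.0465) and at 0.26 by voom (0.0447). Cfi, the gene of factor I, which cuts C3b, is listed at 0 in 5 of the 6 libraries. Cd46 and C5ar1 were not analysed here.

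Of the terminal components, C5, C8a, C8b and C9 were at or below 0.0203 FPKM in every library. C8g, which encodes the gamma chain of C8, was at 2.55 ± 0.15 FPKM with the antagomiR and 2.78 ± 0.508 FPKM in NC (SD, n = 3 each) and was not called, at -0.09 (limma adjusted p = 0.631). C6, named after its values were seen, was at 0.867, 0.823 and 0.552 FPKM in antagomiR replicates 1 to 3, against 0.0341, 0.0274 and 0 FPKM in NC replicates 1 to 3, which are 2, 2 and 0 fragments. It lay below the filter and rose by 0.77 when no filter was used (limma adjusted p = 0.00207). Without NC replicate 3 the count of risen genes among the 20 was 14 and that of fallen genes 2. The second fallen gene was Cfd, the gene of factor D, at -0.40 (limma adjusted p = 0.034). With all libraries Cfd was at -0.92 and was not called (limma adjusted p = 0.141). In NC replicate 3 it had 4.38 times the mean of the other NC libraries.

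**Figure D4:**
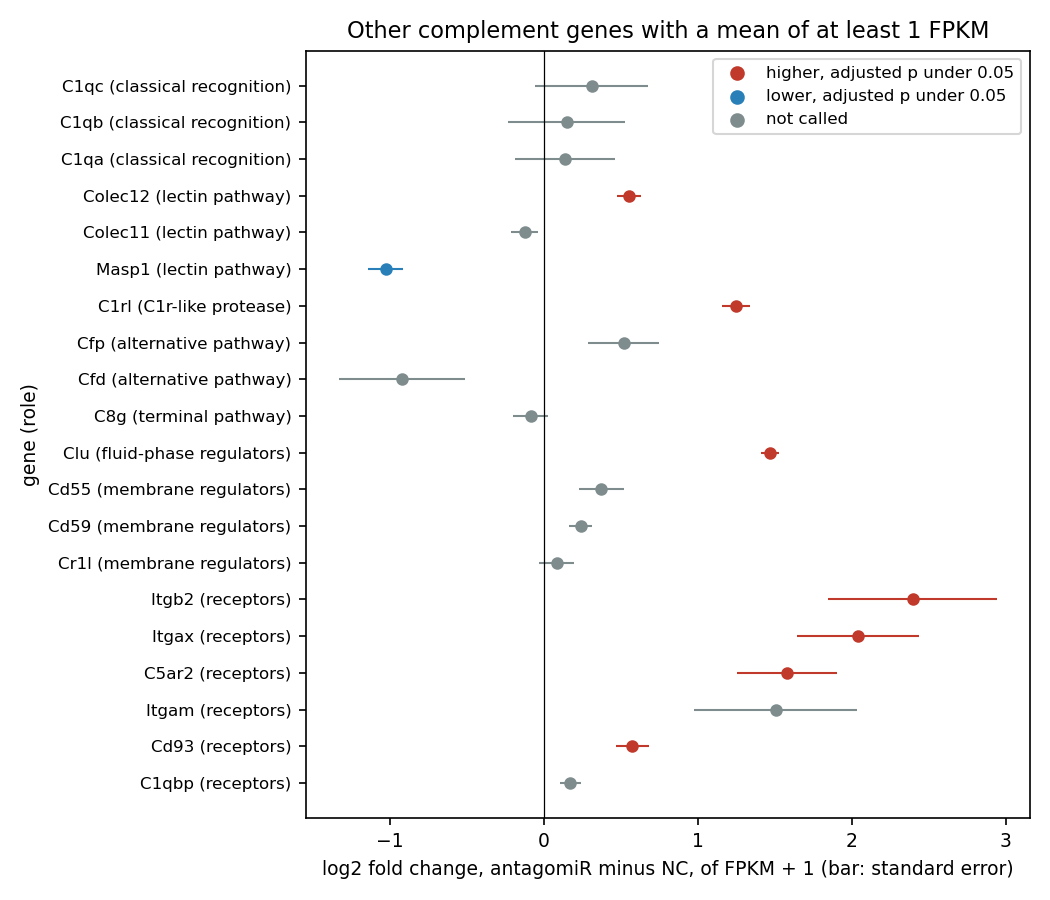
Log2 fold change of antagomiR minus NC on log2(FPKM + 1), with its standard error, for the 20 other complement genes tested, ordered by role. Red marks the 7 that rose, blue Masp1, which fell, and grey the 12 that were not called, with C1qa, C1qb and C1qc near 0.

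Genes beside the complement loci were examined to see whether whole stretches of chromosome differed, with the 2 nearest tested genes on each side of each locus, a choice made after the values were seen. Of 28 such neighbours 9 rose, or 32.1% against 17.5% of all tested genes, 1 fell and 18 were not called by limma. Beside C1r and C1s, only C1rl, itself on the complement list above, rose. Pex5, Lpcat3 and Emg1 had log2 fold changes of 0.18, 0.10 and -0.06 and were not called. All 4 neighbours of Cfb were uncalled, and Nelfe, 13 bp away, was at 0.14 (limma adjusted p = 0.395). Next to Serping1, Ube2l6, an enzyme gene of the ISG15 pathway, rose by 1.67 (limma adjusted p = 0.0101). Beyond C4b, the immunoproteasome gene Psmb8 rose by 2.29 and the peptide transporter gene Tap2 by 1.12 (limma adjusted p = 0.0037 and 0.000821), at 440478 and 424676 bp from it. Gpsm3, 38331 bp from C4b, rose by 1.19 (limma adjusted p = 0.00234). Stk19, 615 bp from C4a, rose by 0.40 and Atf6b fell by 0.19 (limma adjusted p = 0.00409 and 0.018). Tnfsf9 and Trip10 beside C3 and Clec4a1 beside C3ar1 rose by 0.67, 0.20 and 1.23 (limma adjusted p = 0.00232, 0.0184 and 0.0312). Ube2l6, Psmb8 and Clec4a1 varied widely between NC libraries, at 10.8 ± 6.02, 8.81 ± 5.79 and 4.70 ± 3.07 FPKM (SD, n = 3 each).

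The genes whose profiles over the 6 libraries were nearest to those of 3 complement genes were named as a description, by the Euclidean distance between log2(FPKM + 1) values centred on the NC mean. Nearest to C3 were the chemokine gene Ccl7 at 0.616, Cxcl3 at 0.993, the lipocalin gene Lcn2 at 1.43, Cxcl1 at 1.5 and Ccl12 at 1.68. Nearest to C1s were the adhesion gene Vcam1 at 0.208, Enpp2 at 0.397, Chi3l1 at 0.515, Il1b at 0.550 and Nos2 at 0.612. All 5 of these averaged under 1 FPKM in NC, from 0.0125 (Nos2) to 0.765 (Chi3l1), where C1s averaged 16.6. Among those nearest to C3 the NC averages ran from 0.122 (Lcn2) to 6.59 (Ccl7). Because log2(FPKM + 1) understates changes of low genes, a small distance does not mean an equal ratio of means. The distance also contains the antagomiR minus NC difference on which the complement genes were chosen. For Serping1 the 5 nearest included Ch25h at 0.478, the Fc receptor gene Fcgr2b at 0.519, Cfb at 0.639 and Rac2 at 0.710, and the closest, at 0.447, carries no symbol.

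RefSeq promoters of the build GRCr8, 250 bases before to 50 bases after the gene start, were matched for 5 of the 9 symbols, C1r, C3, C4a, C4b and C3ar1. They were searched on both strands for 4 motifs of factors known to act on inflammatory genes: the kappaB consensus, the interferon-stimulated response element core GAAANNGAAA, the STAT site TTCNNNGAA and the C/EBP core TTGCNNAA. Of 33465 promoters 4.18%, 3.92%, 8.87% and 10.6% held these motifs. The C/EBP core matched once each in C3, at positions -104 to -97 from the start, and in C1r, at -83 to -76 on the opposite strand, and no matches overlapped. The other motifs had no match in these 5 windows, which says only that their letters are not there. The promoters of C3 (chr9:2201290-2201589, minus strand) and C1r (chr4:159098763-159099062, plus strand) are shown because they hold the matches, in capitals.
C3: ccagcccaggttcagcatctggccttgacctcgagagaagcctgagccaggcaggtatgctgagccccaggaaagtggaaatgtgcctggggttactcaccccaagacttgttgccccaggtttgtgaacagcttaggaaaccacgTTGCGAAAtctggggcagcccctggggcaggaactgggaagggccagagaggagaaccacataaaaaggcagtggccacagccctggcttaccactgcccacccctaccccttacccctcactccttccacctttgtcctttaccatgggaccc
C1r: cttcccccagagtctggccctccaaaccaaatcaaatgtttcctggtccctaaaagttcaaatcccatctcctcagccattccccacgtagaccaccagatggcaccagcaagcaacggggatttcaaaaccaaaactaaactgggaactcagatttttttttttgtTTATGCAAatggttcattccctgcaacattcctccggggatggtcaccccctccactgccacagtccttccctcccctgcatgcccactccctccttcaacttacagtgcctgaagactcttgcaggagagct

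The promoters of the C4 copies are nearly the same, and are shown so that the copies can be compared. Their part in the C4a and C4b values was not tested. In a gapped alignment 279 of 291 aligned bases, or 95.9%, were equal, with an identical run of 125 bases that spans the start of both. Capitals mark bases that differ or face a gap. The windows lie on the plus strand at chr20:4010107-4010406 for C4a and chr20:4201729-4202028 for C4b.
C4a: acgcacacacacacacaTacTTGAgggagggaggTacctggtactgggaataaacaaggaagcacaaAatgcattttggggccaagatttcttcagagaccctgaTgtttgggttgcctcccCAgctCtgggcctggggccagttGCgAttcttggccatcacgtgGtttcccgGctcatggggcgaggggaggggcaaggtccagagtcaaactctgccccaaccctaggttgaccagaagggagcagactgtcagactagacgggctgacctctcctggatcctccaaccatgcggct
C4b: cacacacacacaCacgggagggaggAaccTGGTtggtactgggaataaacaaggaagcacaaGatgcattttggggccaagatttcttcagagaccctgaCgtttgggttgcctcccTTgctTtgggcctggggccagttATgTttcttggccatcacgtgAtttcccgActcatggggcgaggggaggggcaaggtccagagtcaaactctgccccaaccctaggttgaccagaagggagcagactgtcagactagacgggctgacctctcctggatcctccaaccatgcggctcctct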

How the data were processed

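Per the labels' protocols, RNA was read as pairs of 150 bp after polyA selection. Tools listed in the submitters' processing notes are edgeR, HISAT2, HTSeq, cutadapt and FastQC, without versions, and the build is mRatBN7.2. Annotation and strand setting are not given in the sources used here, so overlapping and antisense genes cannot be told apart. The authors deposited FPKM for 30560 genes, 1 column per library, and 0 columns were left unassigned. Fragments were recovered from FPKM as whole multiples: short genes gave the library totals, and each of the 20134 genes above 0 was given the smallest length that made its 6 values whole to within 0.01. Genes averaging 1 FPKM or more were tested with limma 3.58.1 (R 4.3.3, eBayes with trend) on log2(FPKM + 1), antagomiR minus NC, two-sided, with Benjamini-Hochberg adjustment over 12024 genes and a threshold of 0.05. The script was tested on simulated data. Alternatives were other pseudocounts, filters, scalings, a replicate block, limma without trend, voom on recovered fragments and leaving out each library. The genes and lists were chosen with earlier results of these data known. All 9 complement genes were to be named, then up to 12 called genes of the list by smallest p, a fixed group of its genes whatever their outcome, of which 1 is not reported here, and the 5 nearest profiles of C3, C1s and Serping1. Other genes were named after their values were seen.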

Additional observations from a re-analysis of the deposited data

How the results depend on the processing

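For the 8 complement genes the median log2 difference, 3.22, lay between 2.99 and 3.63 under other pseudocounts and scalings, voom and leaving out any 1 library. With pseudocounts of 0.1 and 0.01 and with voom, low genes moved beyond their replicate spread: C4b from 1.00 to 2.64, 3.39 and 3.47, C4a from 2.75 to 3.39, 3.48 and 3.48, C3ar1 from 1.44 to 2.04, 2.14 and 2.14, and C3 from 5.44 to 6.40, 6.57 and 6.59. For the other complement genes the counts of 7 risen and 1 fallen stayed within 1.5 times under each alternative that kept all libraries (6 to 9 risen, 1 fallen). They were also 7 and 1 with the replicate block. Deviations from the group means correlated at -0.16, -0.06 and -0.04 between libraries of the same replicate number. With means of only 3 libraries, these values cannot tell whether such libraries were paired. Leaving out 1 library gave 6 to 14 risen and 1 to 2 fallen, the highest without NC replicate 3. Then log2 fold changes ran from -0.11 to 0.56 for C1qa, -0.20 to 0.63 for C1qb and -0.031 to 0.77 for C1qc. C1qa was at -0.026 without NC replicate 2. The 7 risen leukocyte markers became 4 with no filter, and 3 to 14 when 1 library was left out. Over all genes 3216 were called, against 1883 to 4862 without 1 library. The cause was not tested. C4b rests on 7 to 19 fragments per NC library, and C6 on 0 to 2.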
